A study of Mus musculus with 24 samples.

Results

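DNA replication genes code for the proteins that mark the start sites of replication, open the double helix, copy both strands, join the copied pieces and supply the nucleotides. The group described here holds 39 genes, chosen by symbol. All 39 are listed once in each of the 3 expression tables of the series, out of 37818 gene symbols in all. The rule names symbols and uses no measured value, but it was set with earlier results of these data known.

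The series followed liver organoids, which are hollow or solid clusters of epithelial cells grown in a gel, from adult wild-type BALB/c mice. The first table holds 3 libraries labelled primary hepatocytes (Pri-Hep, EpCAM-negative cells from a density gradient) and 3 libraries each of hepatocyte organoids (Hep-Orgs) at passage 1, 5 and 10 (P1, P5 and P10), which the study's methods describe as grown with the Notch pathway inhibitor DAPT and dexamethasone. The second table holds 3 libraries each of cholangiocyte organoids (Cho-Orgs), grown from EpCAM+ bile duct cells in a medium with Wnt3a, Noggin and forskolin, at P0, P5 and P10. The third table holds 3 Smart-Seq libraries of organoids picked by shape at P0 (round-like, intermediate or grape-like, 1 library per shape), grown without DAPT and dexamethasone. All media also held R-spondin1, EGF, HGF and the TGF-beta receptor inhibitor A83-01. The study lists FGF7 and CHIR99021 for the hepatocyte organoid medium and not for that of the Cho-Orgs. Levels are given as FPKM, a count of sequenced fragments divided by gene length and library size, which allows genes of 1 library to be compared. The hepatocyte table rests on 14068906 to 27160365 fragments per library. The depth of the other tables was estimated at about 37500000 to 39940000 (Cho-Orgs) and 39460000 to 40740000 (Smart-Seq). The search kept the libraries of a table near a shared value, so these narrow ranges are set by the method.

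The tissue labels were checked against marker genes. The 12 libraries of the hepatocyte table, including those labelled primary hepatocytes, held markers of both cell types. Of 10 cholangiocyte markers 8 were at 1 FPKM or more in every library, with a sum of 3850 to 4068 FPKM, and of 10 hepatocyte markers 6 to 7, with a sum of 604 to 665 FPKM. Among the bile duct markers, Krt19 and Epcam stood at 229 to 247 and 261 to 281 FPKM, and Cftr and Sctr at no more than 0.162 and 0.0260. Among the hepatocyte markers, Ttr and Alb stood at 409 to 454 and 106 to 128 FPKM, Fgb at 44.7 to 48.8 and Hnf4a at 23.3 to 25.7, whereas Apoa2 was listed at 0 and Cyp2e1 and Serpina1c at no more than 0.0300 and 0.0523. The bile duct markers in the libraries labelled primary hepatocytes go against that label, and all 12 libraries are therefore named only by their labels. The Cho-Orgs libraries kept a summed level of the cholangiocyte markers (10 genes) of 3390 FPKM or more at every passage. The mean of this sum was 5661 FPKM at P0 and 3400 at P10, and Spp1 alone stood at 525 to 4649 FPKM. Krt7 stood at 228 to 924 FPKM and Krt19 at 996 to 1420 over the 9 libraries. The study reports that both rose gradually with passage and that Sox9 fell. The sum thus does not give the direction of each marker. At P0 the hepatocyte markers summed to 7182 to 8000 FPKM, so that these libraries held markers of both cell types too.

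Replication is prepared in G1 phase, when the origin recognition complex, Cdc6 and Cdt1 load the MCM2 to MCM7 helicase ring onto DNA. In S phase Cdc45 and the GINS complex turn this ring into the active helicase, and polymerases alpha, delta and epsilon copy the strands. Most of these genes are switched on by E2F factors when a cell leaves rest, so that their transcripts are abundant in dividing and scarce in resting cells. The adult liver divides little, and both hepatocytes and bile duct cells re-enter the cycle after injury or in culture.

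In the Cho-Orgs, the replication genes fell with passage. From P0 to P5, 36 of the 39 members were lower and 0 were higher (limma on log2(FPKM + 1), Benjamini-Hochberg adjusted p under 0.05). Over all 11593 genes tested, 22.6% were lower and 34.0% were higher in this comparison. From P0 to P10, 38 members were lower and 0 were higher, against 31.3% lower and 41.0% higher over all genes. From P5 to P10, 31 members were lower and 0 were higher, against 30.5% and 31.0% over all genes. The median log2 fold change of the members was -0.99, -1.54 and -0.66 in these comparisons, and that of all tested genes was 0.06, 0.07 and 0.01. All 39 members passed the filter on low values. For P5 against P0 the split of calls over all genes, 2621 lower and 3938 higher, turned to 3458 lower and 3073 higher with median-ratio scaling, while the members gave 38 lower and 0 higher. In bulk libraries, fewer cycling cells and less RNA per cell cannot be told apart.

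The summed level of the 39 members was 842 ± 156 FPKM at P0 (SD, n = 3), 401 ± 2.59 at P5 and 263 ± 8.03 at P10. These sums were 0.193%, 0.0950% and 0.0616% of all FPKM in the libraries. In 34 of the 39 members every P0 library lay above every P5 library and every P5 library above every P10 library, an order found in 11.1% of all tested genes. The 5 others were Orc6, Gins4, Pold2, Pole2 and Rfc3. The median member kept 44.3% of its P0 level at P5 and 25.4% at P10.

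**Figure D1:**
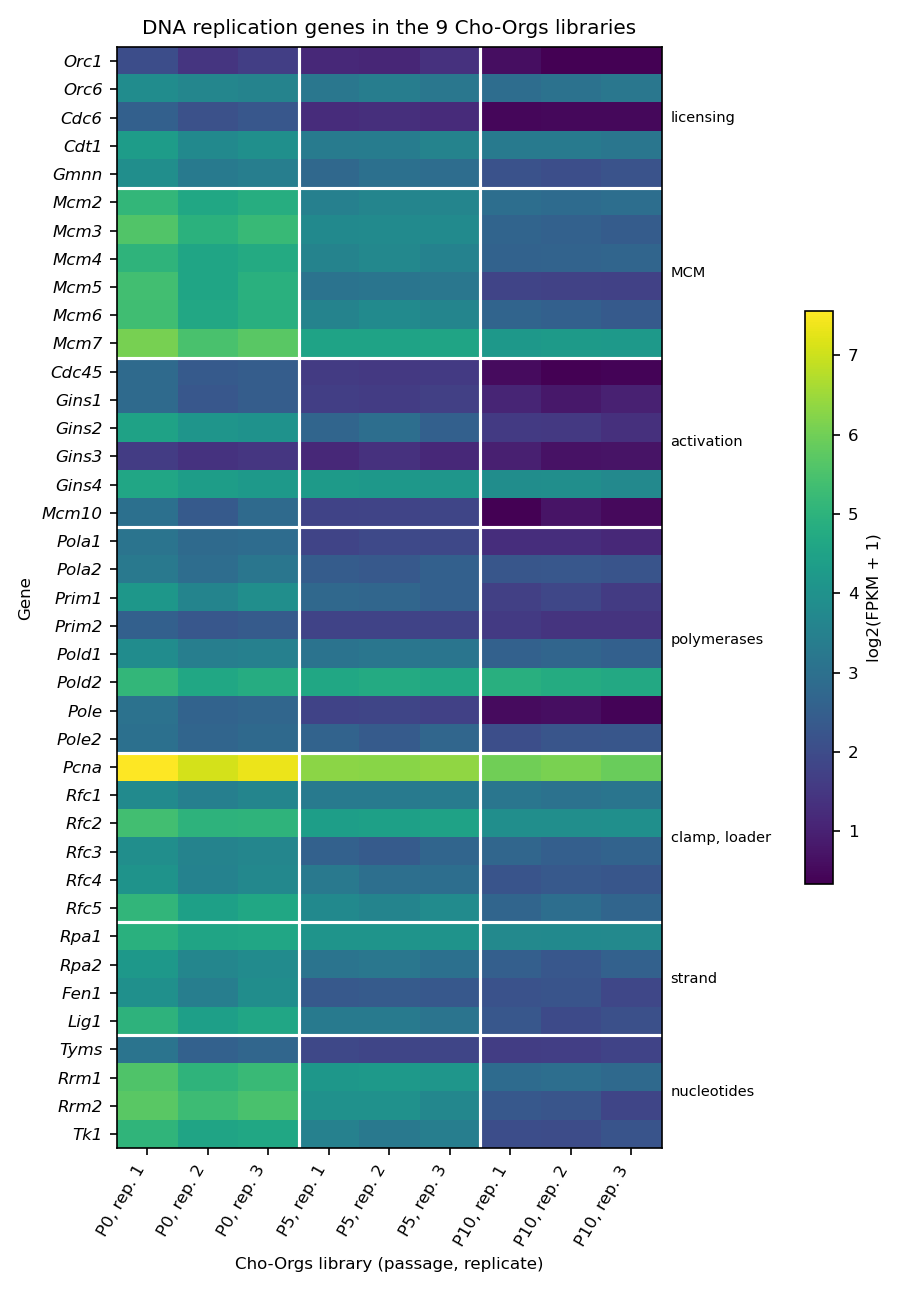
Heat map of log2(FPKM + 1) for the 39 replication genes (rows, grouped by role) in the 9 Cho-Orgs libraries (columns, 3 per passage). Most rows darken from P0 to P10, Pcna is the brightest row in every library, and Pold2 keeps about the same shade.

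The licensing factors recruit the helicase to origins. All 5 were lower at P10 than at P0, by a median of -1.28 in log2. Cdc6, the ATPase that brings the helicase to the origin recognition complex, was at 4.79, 3.37 and 3.93 FPKM in the P0 libraries, at 1.38, 1.47 and 1.35 at P5 and at 0.367, 0.395 and 0.396 at P10. Its groups did not overlap, and the P0 to P10 change in log2 was -1.85 ± 0.10 (SE; limma adjusted p = 1.19e-07). Orc1, the large subunit of the origin recognition complex, went from 2.34 ± 0.679 (SD, n = 3) to 0.357 ± 0.143 FPKM. Cdt1, which loads the helicase together with Cdc6, fell less. It was at 15.3 ± 3.29 FPKM at P0, 9.77 ± 0.833 at P5 and 8.59 ± 0.537 at P10, and its change from P5 to P10 did not pass the test (log2 fold change -0.17, limma adjusted p = 0.273). Gmnn, which codes for geminin, the inhibitor of Cdt1, fell to 31.3% of its P0 level, and Orc6, a small subunit of the origin complex, to 61.5%.

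The 6 genes of the MCM2 to MCM7 ring, the core of the replicative helicase, were all lower at P5 and at P10 than at P0. Mcm5 was at 40.5, 22.9 and 29.2 FPKM in the P0 libraries, at 7.41, 7.87 and 8.15 at P5 and at 2.54, 2.41 and 2.32 at P10. Every P10 library was thus far below every P5 and P0 library, and the P0 to P10 change in log2 was -3.18 ± 0.16 (SE; limma adjusted p = 8.82e-08). Mcm7 was at 67.1, 43.9 and 51.1 FPKM at P0, at 22.0, 21.9 and 22.2 at P5 and at 17.3, 18.2 and 17.5 at P10. Its P0 to P10 change in log2 was -1.54 ± 0.12 (limma adjusted p = 1.95e-06), and the step from P5 to P10 missed the threshold (limma adjusted p = 0.0513). Mcm2, Mcm4 and Mcm6 kept 23.2%, 19.4% and 15.5% of their P0 level at P10, and Mcm3 fell by 2.69 on the log2 scale.

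The proteins of the ring are built into it in equal numbers, and at P0 the transcript levels were close to each other. The highest of the 6 stood 2.10, 1.92 and 1.95 times above the lowest in the P0 libraries, 2.97, 2.79 and 2.73 times at P5 and 6.81, 7.56 and 7.56 times at P10. This ratio within a library does not depend on library scaling, and its groups did not overlap. For the 4 GINS genes the same ratio overlapped between P0 (9.94 to 12.1) and P5 (11.0 to 14.6). For the 5 RFC genes its mean was 3.02 at P0, 4.26 at P5 and 3.69 at P10. How often ratios of other genes separate by passage was not computed. Mcm7 was the highest in all 9 libraries, and Mcm5 the lowest in all libraries of P5 and P10.

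**Figure D2:**
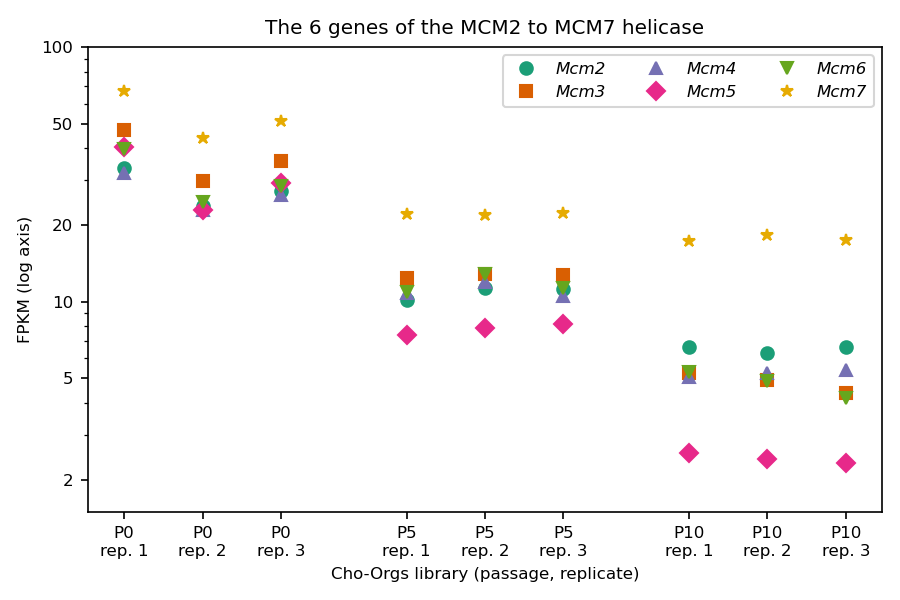
FPKM (log axis) of Mcm2 to Mcm7 in each of the 9 Cho-Orgs libraries, 1 point per gene and library. The points lie within 2.10-fold at P0 and spread to 7.56-fold at P10, where Mcm7 is the highest and Mcm5 the lowest.

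The promoters of the members were read from RefSeq (GRCm38.p6), taking the 250 bases before each listed start. Of the 39 members, 31 had 36 such windows. Gmnn, Mcm4, Gins1, Gins2, Gins4, Prim2, Pole and Rfc2 had none listed. The E2F words TTTGGCGC and TTTCGCGC were searched on both strands, and each can overlap the other. At least 1 of them was in 5 of the 36 member windows (13.9%), against 0.654% of all 32851 windows of the same length. The windows belonged to Mcm6, Mcm5, Rfc3, Pola1 and Orc1. CCAAT, the NF-Y word, was in 58.3% of the member windows and 33.8% of all windows. TTTGAA, the word of the cell cycle homology region (CHR), was in 13.9% and 16.0%. The 4 members with the most E2F matches (ties by level at P0) and Pcna, the member with the highest level, are shown, 5′ to 3′ on the strand of the gene, with E2F words in capitals. They lie at chr1:128359706-128359955 (minus strand, Mcm6), chr8:75109259-75109508 (plus strand, Mcm5), chr5:151651209-151651458 (minus strand, Rfc3), chrX:93632156-93632405 (minus strand, Pola1) and chr2:132253181-132253430 (minus strand, Pcna).
Mcm6: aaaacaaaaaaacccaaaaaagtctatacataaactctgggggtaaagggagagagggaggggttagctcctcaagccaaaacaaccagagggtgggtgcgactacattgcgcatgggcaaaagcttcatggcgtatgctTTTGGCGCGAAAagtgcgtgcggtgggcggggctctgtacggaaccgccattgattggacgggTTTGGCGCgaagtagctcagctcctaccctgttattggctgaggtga
Mcm5: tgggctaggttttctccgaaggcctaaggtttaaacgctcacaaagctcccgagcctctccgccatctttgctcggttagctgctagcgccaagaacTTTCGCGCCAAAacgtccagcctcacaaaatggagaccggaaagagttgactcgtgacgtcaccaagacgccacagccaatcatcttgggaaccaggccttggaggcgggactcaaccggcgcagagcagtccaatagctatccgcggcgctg
Rfc3: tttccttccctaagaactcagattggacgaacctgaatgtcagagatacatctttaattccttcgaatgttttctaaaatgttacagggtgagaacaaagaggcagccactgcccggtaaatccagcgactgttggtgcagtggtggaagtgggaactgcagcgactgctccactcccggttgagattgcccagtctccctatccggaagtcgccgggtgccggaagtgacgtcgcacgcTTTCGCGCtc
Pola1: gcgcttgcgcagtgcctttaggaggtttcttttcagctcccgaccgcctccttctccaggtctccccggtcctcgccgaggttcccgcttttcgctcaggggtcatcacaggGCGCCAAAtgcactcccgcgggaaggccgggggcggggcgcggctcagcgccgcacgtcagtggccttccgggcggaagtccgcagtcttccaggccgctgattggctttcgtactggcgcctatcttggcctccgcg
Pcna: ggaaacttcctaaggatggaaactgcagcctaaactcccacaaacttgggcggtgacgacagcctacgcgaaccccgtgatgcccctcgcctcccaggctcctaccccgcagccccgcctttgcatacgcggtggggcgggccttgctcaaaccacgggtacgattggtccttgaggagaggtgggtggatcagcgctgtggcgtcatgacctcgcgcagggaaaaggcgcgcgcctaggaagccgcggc
In Mcm6 the matches began 110, 106 and 47 bases before the start, and the first 2 overlap as 1 run. The Mcm5 run, 153 and 149 bases before the start, is the reverse complement of that run over all 12 bases. Pcna held neither word in this window. The RefSeq starts of Pcna and Rfc3 lie inside the gene spans listed with the hepatocyte libraries (chr2:132249162-132253314 and chr5:151642756-151651242). Part of each of these windows thus lies inside the listed gene. Among the members with a window, the 5 with an E2F word kept a median of 15.5% of their P0 level at P10 (7.85% to 42.8%) and the 26 without one kept 31.2% (7.05% to 95.2%). A match is a description of letters and not of binding, and these values overlap.

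The activators of the helicase differed widely among themselves. Cdc45, which is part of the active helicase, was at 6.07, 4.15 and 4.51 FPKM at P0, at 2.00, 1.90 and 1.96 at P5 and at 0.459, 0.260 and 0.319 at P10. It kept 7.05% of its P0 level, the lowest share of the 39 members, and its lowest value rests on about 34 fragments. Mcm10, which acts when origins fire, went from 5.76 ± 1.40 to 0.441 ± 0.178 FPKM (SD, n = 3). The GINS complex has 4 different subunits in equal number. Gins2 fell from 17.7 ± 3.45 to 1.81 ± 0.230 FPKM and Gins1 from 4.83 ± 1.13 to 0.953 ± 0.202. In contrast, Gins4 was at 20.1 ± 2.82 FPKM at P0, 17.2 ± 0.837 at P5 and 13.2 ± 0.858 at P10. The change of Gins4 from P0 to P5 missed the threshold (limma adjusted p = 0.0790), but passed it with a replicate block (limma adjusted p = 0.0328). Gins3 was the lowest of the 4 at every passage, and its fall from P0 to P5 (log2 fold change -0.26) passed the test (limma adjusted p = 0.0466) but not with the block (limma adjusted p = 0.0602).

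The polymerase subunits split in the same way. Pole, the catalytic subunit of polymerase epsilon on the leading strand, was at 7.26, 5.19 and 5.63 FPKM at P0, at 2.43, 2.55 and 2.33 at P5 and at 0.464, 0.505 and 0.333 at P10 (log2 fold change from P0 to P10 of -2.28 ± 0.10, SE; limma adjusted p = 5.24e-08). Its partner Pole2 was at 6.92, 5.51 and 5.98 FPKM at P0 and at 3.23, 3.72 and 3.80 at P10. The level of Pole2 over that of Pole was thus 1.03 ± 0.0625 at P0, 2.07 ± 0.352 at P5 and 8.57 ± 2.45 at P10 (SD, n = 3), with no overlap between the passages. The share of other gene pairs that separate in this way was not computed. Of the primase genes, which make the RNA primers together with polymerase alpha, Prim1 kept 16.4% and Prim2 39.9% of the P0 level at P10. Pola1, the catalytic subunit of polymerase alpha, kept 20.4% and its partner Pola2 49.2%. Pold1, the catalytic subunit of polymerase delta, kept 46.2%.

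Pold2, the second subunit of polymerase delta, was the exception among the members. It was at 33.6, 23.8 and 26.7 FPKM at P0, at 24.1, 26.0 and 24.2 at P5 and at 28.7, 26.4 and 25.0 at P10. The 3 groups overlapped. Its log2 fold change was -0.06 ± 0.11 from P0 to P10 (SE; limma adjusted p = 0.658). At P10 it was the second highest member after Pcna.

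Pcna (chr2:132249162-132253314, minus strand, mm10), the sliding clamp that holds polymerases on DNA, was the highest member in 24 of the 24 libraries of the series. It was at 187, 135 and 163 FPKM at P0, at 77.5, 76.7 and 80.6 at P5 and at 62.5, 67.3 and 59.5 at P10. Every P0 library was above every later one, and the P0 to P10 change in log2 was -1.33 ± 0.10 (SE; limma adjusted p = 1.57e-06). Mouse Pcna has processed pseudogene copies, and how shared reads were counted is not given in the sources used here. The clamp is loaded by the replication factor C complex. Its large subunit Rfc1 kept 67.3% of the P0 level at P10, Rfc3 42.8%, Rfc2 41.0% and Rfc5 22.7%, and Rfc4 fell by 1.49 on the log2 scale. Rfc3 had fallen by P5 already and was at 4.90 ± 0.577 FPKM at P5 and 5.15 ± 0.420 at P10 (SD, n = 3).

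The genes that protect and join the strands fell as well. Lig1, the ligase that seals Okazaki fragments, was at 31.3, 20.2 and 23.5 FPKM at P0, at 9.01, 8.71 and 7.70 at P5 and at 3.94, 2.85 and 3.30 at P10. Fen1, the nuclease that trims these fragments, fell to 32.6% of its P0 level at P5 and 25.4% at P10. Rpa1 and Rpa2, subunits of the protein that coats single strands, kept 49.6% and 32.4% at P10.

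Genes of nucleotide supply held the largest fall of the members on the log2(FPKM + 1) scale, in Rrm2. By share of the P0 level kept at P10, Rrm2 (7.77%) came after Cdc45, Pole (7.20%) and Mcm10 (7.65%). Rrm2, the small subunit of ribonucleotide reductase, which makes deoxynucleotides, was at 51.4, 37.7 and 43.5 FPKM at P0, at 14.7, 14.9 and 11.9 at P5 and at 3.96, 3.72 and 2.62 at P10. The passages did not overlap, and the P0 to P10 change in log2 was -3.35 ± 0.14 (SE; limma adjusted p = 3.62e-08). Rrm1, the large subunit, kept 16.5% of its P0 level. Tk1, the thymidine salvage kinase, kept 12.5%. Tyms, the thymidylate synthase, went from 6.09 ± 1.44 to 2.65 ± 0.0924 and 2.25 ± 0.159 FPKM (SD, n = 3), and its step from P5 to P10 did not pass the test (limma adjusted p = 0.257).

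**Figure D3:**
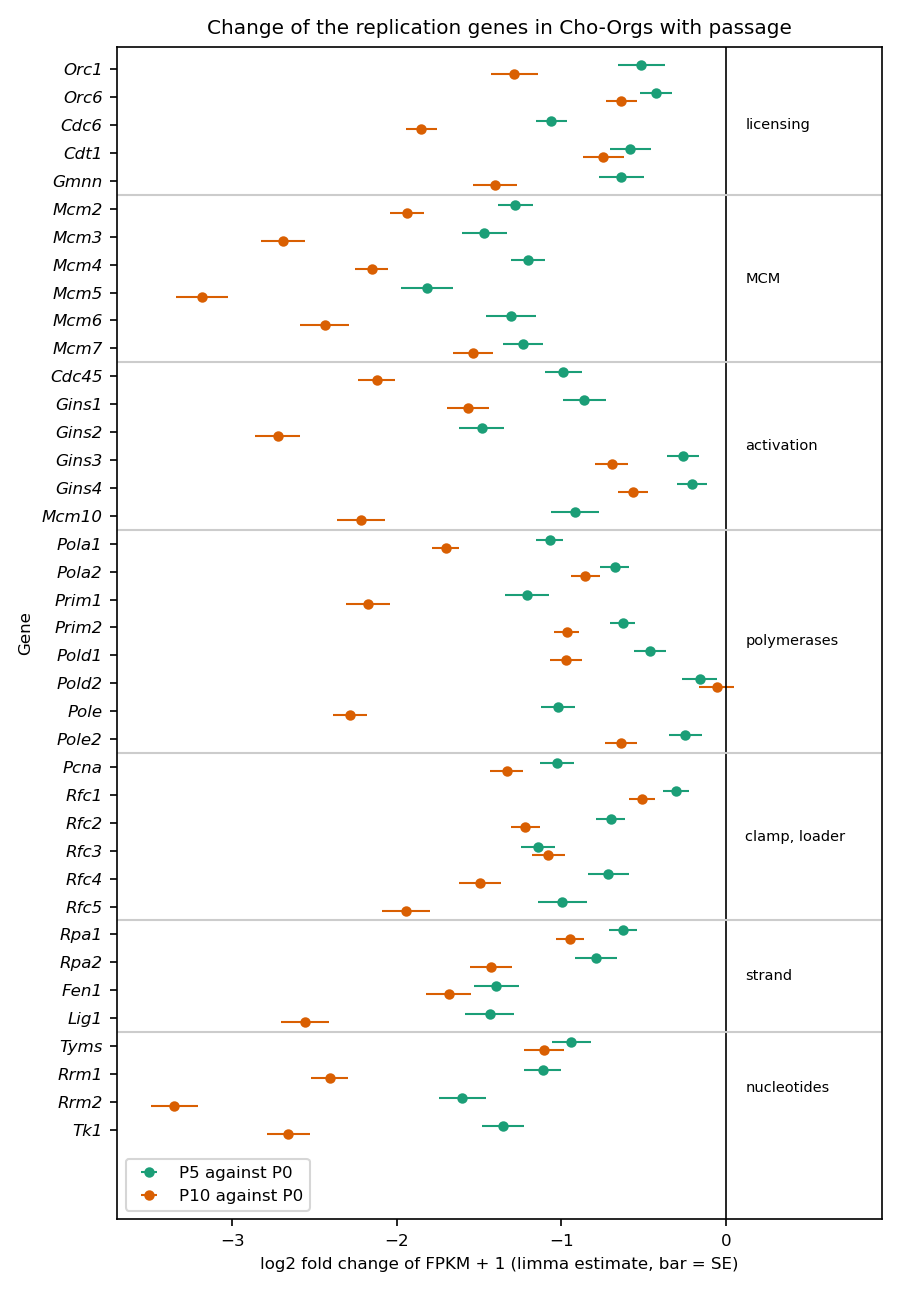
Log2 fold change of FPKM + 1 of each replication gene in Cho-Orgs at P5 (green) and P10 (orange) against P0, with bars of 1 SE from limma, grouped by role. Rrm2 lies farthest left at -3.35 and Pold2 nearest 0 at -0.06.

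Other replication genes moved in the same direction in part. Of 46 further genes of the process, 44 were tested, and from P0 to P10 35 were lower and 4 were higher, with a median log2 fold change of -0.90. The largest falls on the log2(FPKM + 1) scale were in Pclaf (a PCNA-binding factor, 15.6 ± 3.73 to 0.515 ± 0.0628 FPKM), Top2a (topoisomerase II alpha, 62.7 ± 15.5 to 5.47 ± 0.297), Uhrf1, which keeps DNA methylation on new strands, and the histone chaperone Asf1b. The 4 higher genes were Pold4, Orc2, Mtbp and Orc4. Pold4, a small accessory subunit of polymerase delta, rose from 15.3 ± 2.34 to 28.8 ± 4.03 FPKM (SD, n = 3; log2 fold change 0.87 ± 0.12, SE; limma adjusted p = 8.40e-05). Polymerase delta held both the member that did not fall and the accessory gene with the largest rise on this list.

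Of 33 regulators of the step from G1 to S phase, 31 were tested, and 15 were lower and 11 higher at P10 than at P0, beside the 31.3% lower and 41.0% higher over all genes. The lower genes were led by Ccna2 (cyclin A2, 37.6 ± 8.27 to 1.11 ± 0.0567 FPKM), E2f8, Cdkn2d and Rbl1. The higher genes were led by the cell cycle inhibitor Cdkn2b (18.2 ± 3.83 to 87.4 ± 1.42), Myc (32.3 ± 1.81 to 150 ± 1.37), the inhibitor locus Cdkn2a (21.6 ± 6.02 to 73.7 ± 0.681) and the kinase Cdk6 (5.55 ± 0.435 to 17.1 ± 0.417; SD, n = 3). All 10 mitosis genes were lower at P10 than at P0, with a median log2 fold change of -3.36. Mki67, the common marker of cycling cells, was at 37.3 ± 7.47 FPKM at P0, 15.8 ± 0.582 at P5 and 1.27 ± 0.0318 at P10.

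The P0 libraries of the Cho-Orgs were not alike. In 39 of 39 members replicate 1 was the highest of the 3 P0 libraries, against 43.6% of all tested genes, and it stood 1.34 times above the mean of the other 2 in the median member (1.18 to 1.56), against 1.02 times over all tested genes. Replicate 1 was also the highest in 10 of 10 mitosis genes and in 15 of 31 regulators. Without this library, 35, 38 and 34 members were lower for P5 against P0, P10 against P0 and P10 against P5, and 0 were higher. Of all 11355 genes tested without it, 2319, 3420 and 3737 were lower and 4131, 4853 and 3899 were higher. Markers of other cells moved with passage too. The summed level of the hepatocyte markers (10 genes, Alb among them) was 7182 to 8000 FPKM at P0, 204 to 250 at P5 and 77.9 to 83.4 at P10. The summed stellate cell markers were 64.6 to 79.5, 7.59 to 8.42 and 0.174 to 0.239 FPKM, and the macrophage markers 43.5 to 48.9, 72.1 to 77.3 and 10.1 to 10.5 FPKM, with no more than 2 of their 10 genes at 1 FPKM or more. Reln alone reached 74.5 FPKM, whereas Col1a1, Col3a1 and Dcn stayed at no more than 0.196, 0.131 and 0.202. Cd68 reached 76.9 FPKM and Lyz2 15.8, whereas Adgre1 and C1qa stayed at no more than 0.619 and 0.899. These sums rest on few genes and do not show that such cells were present. The part of these markers in the fall of the replication genes was not tested.

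In the hepatocyte table, the replication genes were low in all 12 libraries, and no change between the labelled groups passed the test. In the libraries labelled Pri-Hep the 39 members summed to 165 ± 2.16 FPKM (SD, n = 3), and in Hep-Orgs to 165 ± 4.51 at P1, 163 ± 3.03 at P5 and 168 ± 4.82 at P10. The filter was passed by 33 members. Orc1, Cdc6, Cdc45, Gins2, Gins3 and Mcm10 were left out, with means over the 12 libraries of 0.243 FPKM (Mcm10) to 0.860 FPKM (Gins3). Of the 33 tested members, 0 differed in any of the 6 comparisons (limma, adjusted p under 0.05), and 0 did so with limma-voom on the recovered fragments. Over all 10986 genes tested, 0.0091% were called for P1 and for P5 against Pri-Hep, 0.0273% for P10 against P5 and 0.0% in the other 3 comparisons, and 0 genes were called in any of the 6 with the replicate block. At an unadjusted p under 0.05, limma gave 2, 3 and 1 members for P1, P5 and P10 against Pri-Hep, and 2, 1 and 5 for P5 against P1, P10 against P1 and P10 against P5. Over all genes tested this threshold was passed by 8.29%, 10.8% and 6.64%, and by 3.97%, 8.98% and 11.5%. The fitted log2 fold changes of the members lay between -0.22 and 0.20.

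Pcna was at 30.8 FPKM in the lowest, 33.2 in the median and 35.4 in the highest of these 12 libraries. Mcm5 was at 0.848, 1.06 and 1.39 FPKM, and Rrm2 at 4.38, 5.10 and 5.81. Rfc1 was at 12.6, 12.9 and 13.7 FPKM, with the smallest coefficient of variation of the 39 members, 2.75%. In Rrm2 the 4 labelled groups overlapped. The smallest unadjusted p-values of the members were in Fen1 and Mcm3. Fen1 was at 2.63 ± 0.0635 FPKM in Pri-Hep (SD, n = 3), with no library above 2.71, at 3.18, 3.05 and 3.16 at P1, at 2.42, 2.74 and 2.54 at P5 and at 3.41, 2.91 and 2.98 at P10. Its P1 and P10 libraries lay above those of Pri-Hep and P5, and the differences missed the threshold (P5 against P1, log2 fold change -0.21, limma adjusted p = 1.00; P10 against P5, 0.20, limma adjusted p = 0.230). Mcm3 was at 2.16, 1.99 and 2.10 FPKM at P5 and 2.43, 2.70 and 2.43 at P10, and missed it too (log2 fold change 0.19, limma adjusted p = 0.243). The median coefficient of variation of the members over the 12 libraries was 8.56%. The ratio of this spread to the counting error of the fragments, taken gene by gene, had a median of 1.18 (0.756 to 1.82). The members rested on 11 to 2096 fragments per library. Over all genes, pairs of libraries of 1 group differed by 1.90 to 3.04 times the variance of counting alone (median 2.17). Pairs of different groups differed by 1.80 to 4.36 times (median 2.48). No library thus repeated the values of another. This measure cannot tell libraries of separate cells from repeat libraries of the same cells, and that was not tested.

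The tables were normalized separately, so that levels can only be set side by side. The mean of the 12 hepatocyte libraries lay below that of Cho-Orgs P0 in 38 of 39 members, Rfc1 being the exception, and below that of Cho-Orgs P10 in 25. Among the genes above the P10 level were Pole (1.01 ± 0.0980 FPKM, SD over 12 libraries, beside 0.434 ± 0.0897 in Cho-Orgs P10), Gmnn (9.03 ± 1.06 beside 3.37 ± 0.180) and Rrm2 (5.13 ± 0.469 beside 3.43 ± 0.714). Among those below it were Mcm7 (4.50 ± 0.350 beside 17.7 ± 0.485) and Pold2 (8.15 ± 0.466 beside 26.7 ± 1.90). Of Mcm2 to Mcm7, Mcm4 was the highest in each of the 12 libraries and Mcm5 the lowest.

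**Figure D4:**
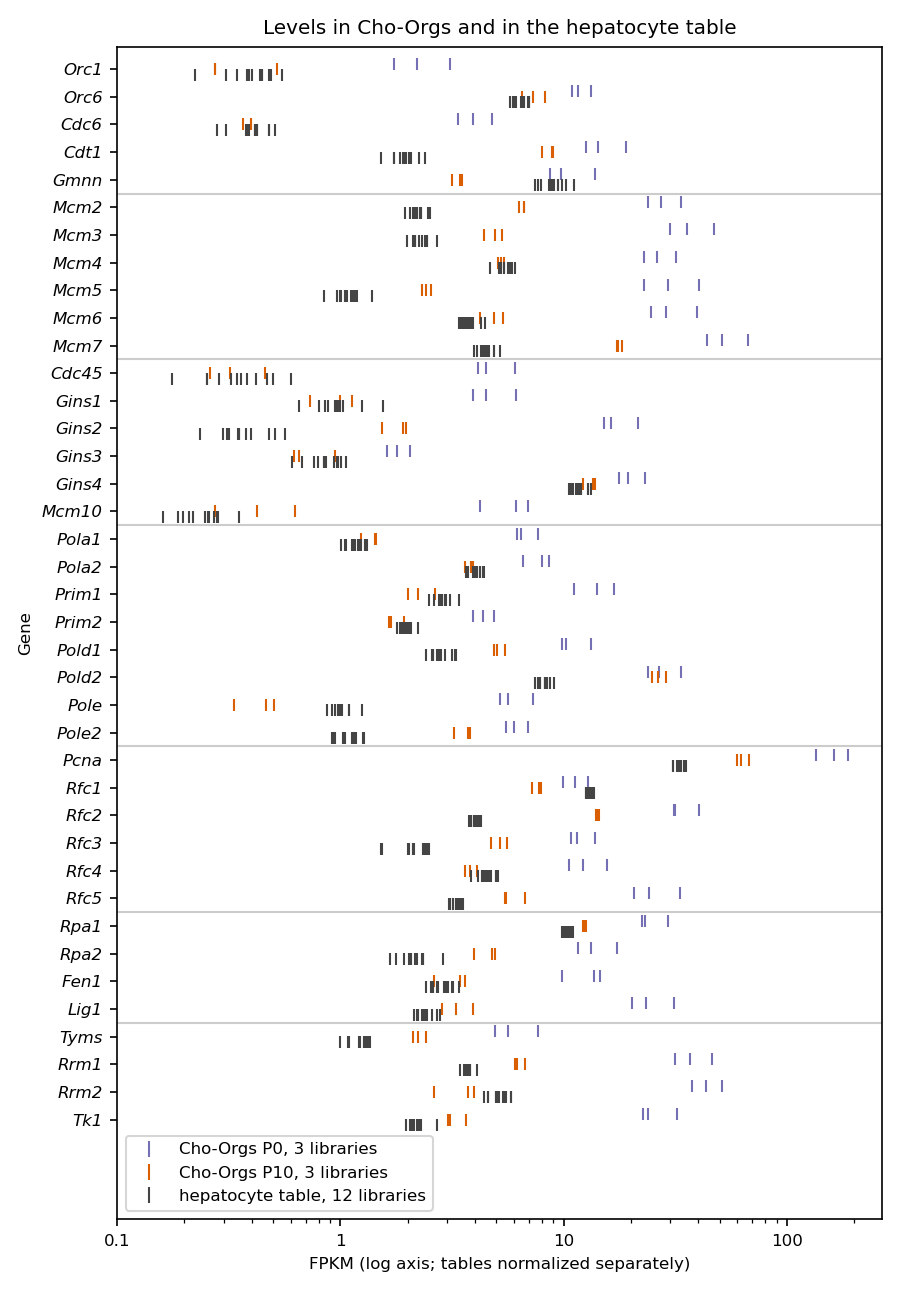
FPKM (log axis) of the 39 replication genes, with 1 tick per library, for Cho-Orgs P0 (purple) and P10 (orange) and for the 12 libraries of the hepatocyte table (grey). The hepatocyte libraries lie below the P0 libraries of the Cho-Orgs by mean in 38 of 39 genes and below the P10 libraries in 25.

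The Smart-Seq libraries compare 3 shapes of P0 organoid with 1 library each, so that there is no test and no replicate error. By FPKM without further scaling, the replication genes were highest in the round-like library in 38 of 39 members. Of the 12595 genes at 1 FPKM or more in at least 1 library, 46.8% were highest there. The exception was Orc6, at 22.4 FPKM in the grape-like, 14.9 in the intermediate and 22.0 in the round-like library. The intermediate library was the lowest in 33 members and the grape-like in 6. The members summed to 941, 758 and 1291 FPKM.

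The median log2 ratio of the members (FPKM + 1) was -0.37 for grape-like against round-like, -0.77 for intermediate against round-like and 0.25 for grape-like against intermediate, and that of all genes was -0.13, -0.12 and 0.03. A difference of at least 0.5 in log2 was taken as a difference between libraries. By this measure 16 members were lower and 0 higher in grape-like than in round-like organoids, against 25.2% and 22.6% of all genes. In intermediate against round-like, 32 members were lower and 0 higher, against 14.4% and 10.8%. In grape-like against intermediate, 7 members were higher and 0 lower, against 21.6% and 16.5%, and 33 of the 39 members lay above 0, against 52.8% of all genes. The count of members higher depended on the setting. It was 12 with a pseudocount of 0.1 (24.8% of all genes), 14 with TPM (27.9%) and 4, with 1 lower, with median-ratio scaling (19.5%). Against round-like, median-ratio scaling left 12 members lower in grape-like (21.2% of all genes) and 24 in intermediate (8.81%). With that scaling 5 members lay above 0 for grape-like against round-like, so fewer members were highest in round-like.

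By role, the MCM ring showed the lowest median ratio of grape-like against round-like organoids (-0.79). Mcm7 was at 33.9, 36.8 and 66.7 FPKM, and Mcm5 at 29.8, 25.9 and 56.1 FPKM, in the order grape-like, intermediate, round-like. The 6 MCM genes lay within 1.22-fold, 1.65-fold and 1.64-fold of each other. Pcna was at 196, 135 and 210 FPKM, Cdt1 at 26.3, 13.9 and 27.4, and Tk1 at 27.4, 16.6 and 28.8. In these genes the grape-like and round-like libraries were close and the intermediate one was lower. Pold2 (17.2, 23.0 and 35.4) and Rfc4 (13.7, 19.1 and 28.8) followed another order, with the grape-like library the lowest.

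Markers of other cells differed strongly between these 3 libraries. The summed macrophage markers (10 genes, all at 1 FPKM or more) were 10240 FPKM in the grape-like, 2955 in the intermediate and 1631 in the round-like library, and the stellate cell markers 1591, 410 and 350. The hepatocyte markers summed to 5853, 10252 and 1397 FPKM. The cholangiocyte markers (9 genes listed) summed to 878, 3461 and 2857 FPKM. Their part in the differences of the replication genes was not tested. The lowest member value rests on about 290 fragments, and the amplified cDNA held no molecular identifiers, so that counting error alone understates the error.

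**Figure D5:**
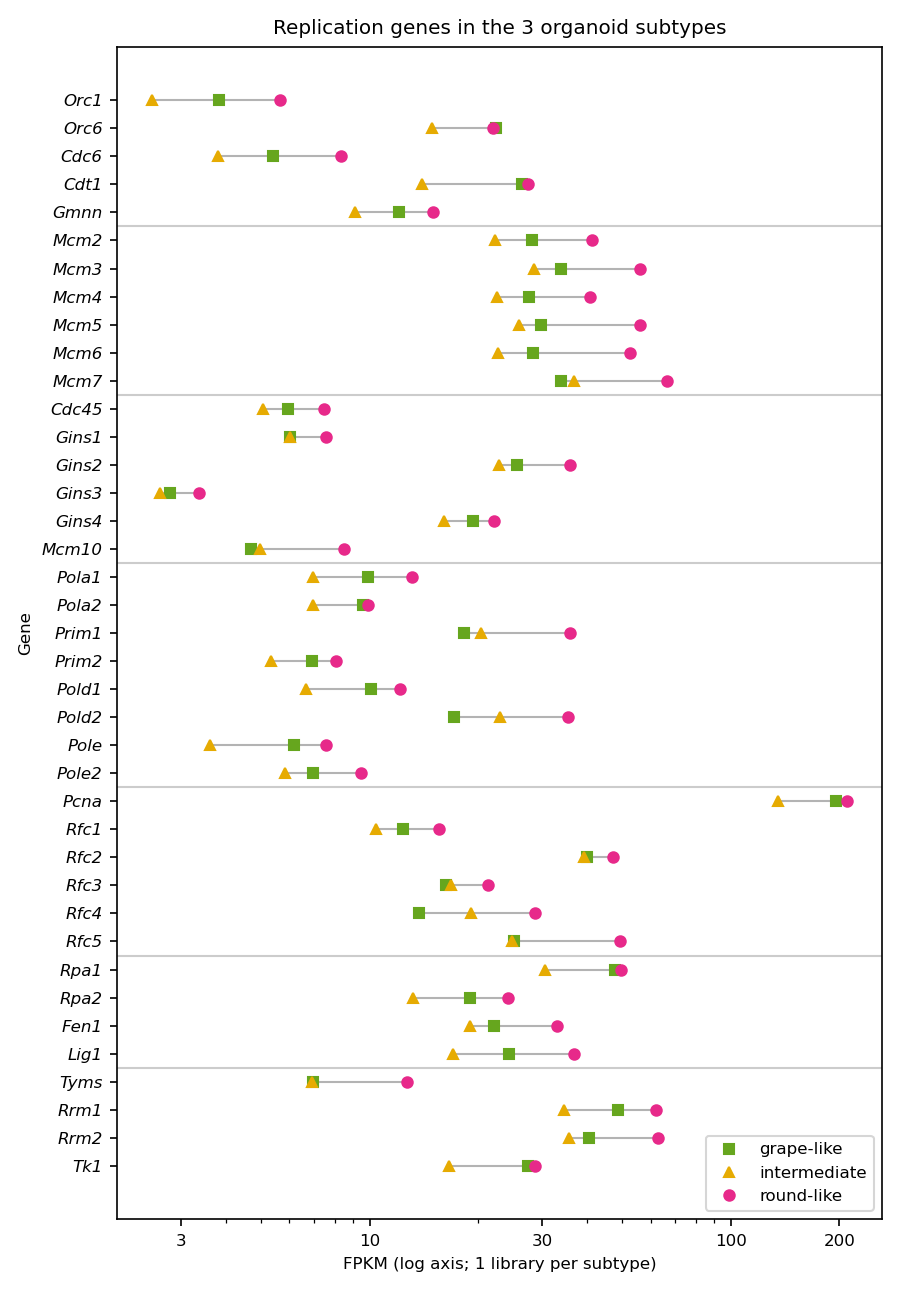
FPKM (log axis) of the 39 replication genes in the grape-like (green squares), intermediate (yellow triangles) and round-like (pink circles) libraries, with a line joining the lowest and highest. The round-like library is the highest in 38 of 39 genes and the intermediate the lowest in 33.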

How the data were processed

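Poly(A) RNA of 21 bulk libraries and amplified cDNA of 3 Smart-Seq libraries had been sequenced, and the authors deposited FPKM values in 3 tables, each normalized on its own. The submitters' processing notes name featureCounts 2.0.3, edgeR 3.40.2 and the build mm10. The aligner is not given in the sources used here. Fragments per gene were recovered in the hepatocyte table from FPKM and the listed length, with 100% of values whole within 0.05. In the other tables depth was estimated from the steps between low values and GENCODE M21 lengths, and it is approximate.

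The groups of each table shared 1 fit in limma 3.58.1 (R 4.3.3, lmFit, eBayes with trend) on log2(FPKM + 1), so that folds of low genes are understated. Genes at 1 FPKM or more in at least 3 libraries were tested. Tests were two-sided with Benjamini-Hochberg adjustment over all genes tested. The study's figure legends tie the numbers 1 to 3 to 3 mice, which would pair libraries of the same number. Its methods describe each bulk replicate as an independent culture and do not mention pairing by mouse. The fit was also run on simulated data with independent errors and 200 changed genes. Far more genes were called in the Cho-Orgs, so that run is no evidence for the calls made here. In the values, same-numbered libraries did not deviate together (median correlation -0.0063 over 9 pairs of Cho-Orgs libraries, -0.0016 over 18 pairs in the hepatocyte table). The study's methods name no paired test, so the fit has no block, and the replicate block is an alternative whose values stand beside each call it changed. Other alternatives were pseudocount, filter, TPM, median-ratio scaling, libraries left out, and limma-voom. The members, the gene lists and the marker lists were chosen with earlier results of these data known. All members could be named, and of the other lists the 4 largest changes in each direction from P0 to P10 and Mki67. Python 3.11.15 and matplotlib 3.10.9 were used for the rest.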

Additional observations from a re-analysis of the deposited data

How the results depend on the processing

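In the Cho-Orgs, the members called lower numbered 26 to 38 for P5 against P0, 27 to 38 for P10 against P0 and 22 to 37 for P10 against P5 over the alternatives, and 0 members were higher in any of them. The lowest counts came with a mean FPKM of at least 5, where 28 members were tested. Of all 7721 genes tested there, 1693, 2357 and 2316 were lower. The count of 38 for P5 against P0 came with median-ratio scaling, where 3458 of 11577 genes were lower. The count of 37 for P10 against P5 came from a fit of only the 2 groups compared, where 3839 of 11195 genes were lower. With the replicates of 1 number left out in turn, 33 to 36, 38 to 38 and 25 to 32 members were lower. Of the 11072 to 11093 genes tested in those fits, 1555 to 2098, 2749 to 3173 and 2551 to 3017 were lower. With the replicate block the counts stayed at 36, 38 and 31, and the block changed the call of Gins3 and Gins4 for P5 against P0 and no other call of a member. Of all 11593 genes tested with the block, 2551, 3614 and 3428 were lower. With the block, the further replication genes gave 34 lower and 4 higher for P10 against P0, the regulators 15 and 11 and the mitosis genes 10 and 0. Without P0 replicate 1 these counts were 32 and 3, 16 and 11, and 10 and 0. Leaving out P0 replicate 1 alone was chosen after seeing the data. Pold2 turned its direction for P10 against P0, with a log2 fold change of -0.156 to 0.0252 when 1 replicate number was left out and 0.0774 without P0 replicate 1 alone, and it passed the threshold in none of these. In the hepatocyte libraries, 0 members were called under every alternative run, leave-one-out and replicate block included. In the Smart-Seq libraries the median ratio of the members moved to -0.30 for grape-like against round-like with median-ratio scaling, to -0.85 with TPM and -0.62 with median-ratio scaling for intermediate against round-like, and to 0.34 with TPM for grape-like against intermediate. Depth limits the members under 1 FPKM, and 1 library per shape allows no error in the Smart-Seq table.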

Other observations

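Ratios of partner genes within a library, which do not depend on library scaling, also differed between the tables. They do depend on the gene lengths and the counting used, and lengths were listed for the hepatocyte libraries only. Ratios of different tables can thus only be set side by side. The level of Gmnn over that of Cdt1, the factor its protein inhibits, was 0.700 ± 0.0272 in Cho-Orgs at P0, 0.662 ± 0.0682 at P5 and 0.394 ± 0.0432 at P10 (SD, n = 3). In the hepatocyte table it was 5.07 ± 1.24 in the libraries labelled Pri-Hep, and 4.15 ± 0.608, 5.14 ± 0.376 and 4.41 ± 0.137 in Hep-Orgs at P1, P5 and P10. In the Smart-Seq libraries it was 0.459 (grape-like), 0.653 (intermediate) and 0.548 (round-like). Gmnn was thus above Cdt1 in the hepatocyte table and below it in the other tables. The level of Rrm2 over that of Rrm1, the subunits of ribonucleotide reductase, was 1.16 ± 0.0414 at P0, 0.818 ± 0.0819 at P5 and 0.543 ± 0.103 at P10 in Cho-Orgs, with no overlap between passages. The share of other gene pairs without overlap was not computed. In the hepatocyte table the group means of this ratio lay between 1.28 and 1.52.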
